A study of Mus musculus with 15 samples.

Results

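The baseline transcriptome of untreated mouse neurospheres was described from 4 of the 15 arrays of the series, those titled as control cultures at the level of total RNA. The study compared neurosphere cultures with and without CD95L-T4, a trimerised construct of the ligand of the receptor CD95 (Fas), in total RNA and in RNA bound to polysomes, at 48 h. The 4 arrays used here came from primary neural stem cells of 6-week-old female mice, of the strain labelled C57/B16, grown as neurospheres with the treatment given as control. Total RNA was extracted with the miRvana kit, labelled with biotin and hybridised to an Affymetrix mouse array. The titles call the 4 samples biological replicates, and they are named here cultures 1 to 4. Whether the cultures came from separate animals, the brain region they were taken from, the growth medium and the passage were not given in the sources used here. No groups were compared, no test was made, and every value below is a description of these 4 arrays.

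Neurospheres are free-floating clusters that form when neural stem and progenitor cells are grown without attachment, usually with epidermal and fibroblast growth factors. They hold stem cells together with dividing progenitors and cells that have begun to differentiate, and they can give rise to neurons, astrocytes and oligodendrocytes once the growth factors are withdrawn. Sox2 and nestin mark neural stem and progenitor cells, Olig2 marks progenitors of the oligodendrocyte lineage, Ki-67 marks cycling cells, and GFAP and doublecortin mark astrocytes and young neurons.

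The values are log2 signals per probe set, a set of short probes to 1 transcript. After 64 control probe sets were left out, 22626 probe sets were ranked by their mean over the 4 arrays, and a gene was represented by its probe set with the highest mean, which gave 12393 genes. A gene was called high when its mean lay above 10.43, which the brightest 10% of probe sets did. It was called near background at or below 6.07, the 90th percentile of 78 measured genes that belong to other organs, such as liver, muscle, testis and pancreas. Genes between these bounds were called middle. By these bounds 1331 genes (10.7%) were high, 6135 (49.5%) were middle and 4927 (39.8%) were near background, and the median gene stood at 7.31. Probes differ in how well they bind, so the rank orders signals and not amounts of mRNA, and a level near background does not show that a transcript was absent. Probe sets of a gene often disagreed, by more than 1 in log2 for 3107 (62.7%) of the 4956 genes with several. Errors are SDs over the 4 cultures throughout, and the number of arrays limits their precision.

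The labelled cell type was checked first against its 6 markers. Sox2, a transcription factor that keeps neural progenitors undifferentiated, read 11.71, 11.63, 11.71 and 11.72 in cultures 1 to 4, a mean of 11.69 ± 0.04. The stem cell intermediate filament gene Nes read 11.25, 10.94, 11.05 and 11.13. Both were high in every culture, at the 96.5th and 94.1th percentiles of probe sets. The other Nes probe sets averaged 8.62 ± 0.50 and 7.40 ± 0.60, so the class of Nes rests on its brightest probe set. Olig2, a transcription factor of oligodendrocyte and motor neuron progenitors, read 11.76, 11.72, 11.68 and 11.73. The cycle marker Mki67 read 11.88, 11.75, 11.91 and 11.90. These genes were also high in every culture, with ranges under 0.2 between cultures. Gfap, the astrocyte filament gene, read 4.46, 4.58, 4.72 and 4.73, and its other probe set averaged 3.97. Dcx, a microtubule-binding protein of migrating neurons, read 4.78, 4.60, 4.53 and 5.15, and its 4 probe sets averaged between 3.63 and 4.76. Both lay below the near-background bound in every culture, so 4 of the 6 markers were high and the astrocyte and neuron markers were near background. In RNA from whole cultures, fewer cells of a type and less RNA per cell cannot be told apart, here and in every list below.

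The stretches upstream of these 6 genes are shown because the level of a gene went with the number of CG dinucleotides in the 250 bases before its start, as described further below. Fabp7 and Id4 are added as the opposite cases, a very bright gene with few CG dinucleotides and a dim one with many, and were chosen after the values were seen. Sequences are RefSeq's for build GRCm38.p6, from 250 bases before the annotated start to the start, 5′ to 3′ on the strand of the gene, with CG dinucleotides in capitals. For Dcx, with 2 starts in the table, the first is shown.
Sox2 (chr3:34649745-34649994, plus strand): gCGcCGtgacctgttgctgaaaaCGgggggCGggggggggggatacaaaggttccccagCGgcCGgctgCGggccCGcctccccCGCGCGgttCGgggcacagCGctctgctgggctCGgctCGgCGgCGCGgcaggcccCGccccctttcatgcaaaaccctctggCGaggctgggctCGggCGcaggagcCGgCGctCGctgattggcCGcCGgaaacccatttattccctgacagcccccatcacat
Nes (chr3:87970843-87971092, plus strand): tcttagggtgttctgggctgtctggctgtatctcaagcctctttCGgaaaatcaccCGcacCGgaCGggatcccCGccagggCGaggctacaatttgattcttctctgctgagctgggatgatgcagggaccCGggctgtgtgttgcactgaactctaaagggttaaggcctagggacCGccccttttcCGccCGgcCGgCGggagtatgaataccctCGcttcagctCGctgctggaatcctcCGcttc
Olig2 (chr16:91225300-91225549, plus strand): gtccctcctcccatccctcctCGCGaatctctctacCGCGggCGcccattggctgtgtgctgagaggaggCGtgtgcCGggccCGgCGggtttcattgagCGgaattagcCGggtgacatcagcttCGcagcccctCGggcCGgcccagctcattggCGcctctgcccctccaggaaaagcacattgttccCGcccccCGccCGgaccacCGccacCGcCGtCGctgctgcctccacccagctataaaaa
Mki67 (chr7:135716380-135716629, minus strand): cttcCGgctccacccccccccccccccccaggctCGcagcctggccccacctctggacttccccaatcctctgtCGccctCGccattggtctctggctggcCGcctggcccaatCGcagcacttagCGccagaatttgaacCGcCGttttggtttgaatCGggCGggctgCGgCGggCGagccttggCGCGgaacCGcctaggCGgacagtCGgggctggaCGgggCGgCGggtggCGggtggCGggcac
Gfap (chr11:102897201-102897450, minus strand): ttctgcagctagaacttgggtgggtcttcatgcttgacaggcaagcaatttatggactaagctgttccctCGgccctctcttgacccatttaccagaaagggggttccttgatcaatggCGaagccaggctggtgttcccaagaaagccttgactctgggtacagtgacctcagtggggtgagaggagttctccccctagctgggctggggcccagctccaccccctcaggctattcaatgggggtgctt
Dcx (chrX:143933220-143933469, minus strand): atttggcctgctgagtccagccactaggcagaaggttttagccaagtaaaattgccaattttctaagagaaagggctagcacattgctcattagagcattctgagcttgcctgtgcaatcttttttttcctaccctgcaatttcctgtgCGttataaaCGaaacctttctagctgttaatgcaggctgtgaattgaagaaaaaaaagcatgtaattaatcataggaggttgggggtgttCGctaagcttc
Fabp7 (chr10:57784673-57784922, plus strand): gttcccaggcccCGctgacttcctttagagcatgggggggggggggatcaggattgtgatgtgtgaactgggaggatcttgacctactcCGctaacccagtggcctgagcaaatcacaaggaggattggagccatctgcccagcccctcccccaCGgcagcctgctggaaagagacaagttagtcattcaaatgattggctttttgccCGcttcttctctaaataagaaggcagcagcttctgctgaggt
Id4 (chr13:48260866-48261115, plus strand): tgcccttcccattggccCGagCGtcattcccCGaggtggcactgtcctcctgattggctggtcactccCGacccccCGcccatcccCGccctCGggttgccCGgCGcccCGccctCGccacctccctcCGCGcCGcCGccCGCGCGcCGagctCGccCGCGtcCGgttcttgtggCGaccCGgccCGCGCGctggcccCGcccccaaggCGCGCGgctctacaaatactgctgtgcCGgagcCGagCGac

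Among the 6 markers the high genes held 27 (Sox2), 15 (Nes), 22 (Olig2) and 24 (Mki67) CG dinucleotides, and the genes near background held 2 (Gfap) and 3 (Dcx). Fabp7 held 4 and Id4 held 35. The letters TATAAA, on either strand, occurred in the stretches of Olig2 and Dcx and in none of the other 6 shown.

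The brightest genes of the cultures were those of translation and the cytoskeleton. Eef1a1, the elongation factor that brings aminoacyl-tRNA to the ribosome, led with 14.26 ± 0.01. It was followed by the ribosomal protein gene Rpl37a (14.24 ± 0.02), the actins Actg1 (14.09 ± 0.02) and Actb (14.08 ± 0.15) and the actin-binding thymosin Tmsb4x (14.03 ± 0.05). Actb read 13.86, 14.18, 14.13 and 14.15, lowest in culture 1, whereas Actg1 stayed within 0.05 over the cultures. Of the 30 brightest genes, those outside translation and the cytoskeleton included thioredoxin Txn1 (13.95 ± 0.02), the creatine kinase Ckb of brain (13.90 ± 0.02), the lectin Lgals1 (13.77 ± 0.02), the chaperone Hspa8 (13.69 ± 0.08) and the fatty acid carrier Fabp7 (13.84 ± 0.03). Fabp7, also known as brain lipid-binding protein of radial glia, was the brightest gene of the stem cell list.

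Genes were then read in 25 lists by role, of which between 0 and 17 members a list had no probe set with a single gene name and were not measured here. The medians ran from 13.52 for cytosolic ribosomal proteins to 4.01 for Y-linked genes, against 7.31 for all genes. Counts in every list below stand beside the shares of all genes, 10.7% high, 49.5% middle and 39.8% near background. After the ribosomal proteins came oxidative phosphorylation (11.71), the citric acid cycle (10.87), proliferation (10.56) and lipid and cholesterol metabolism (10.30). The lists of other cell types of the brain lay at the level of genes of other organs, whose median was 4.24.

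**Figure D1:**
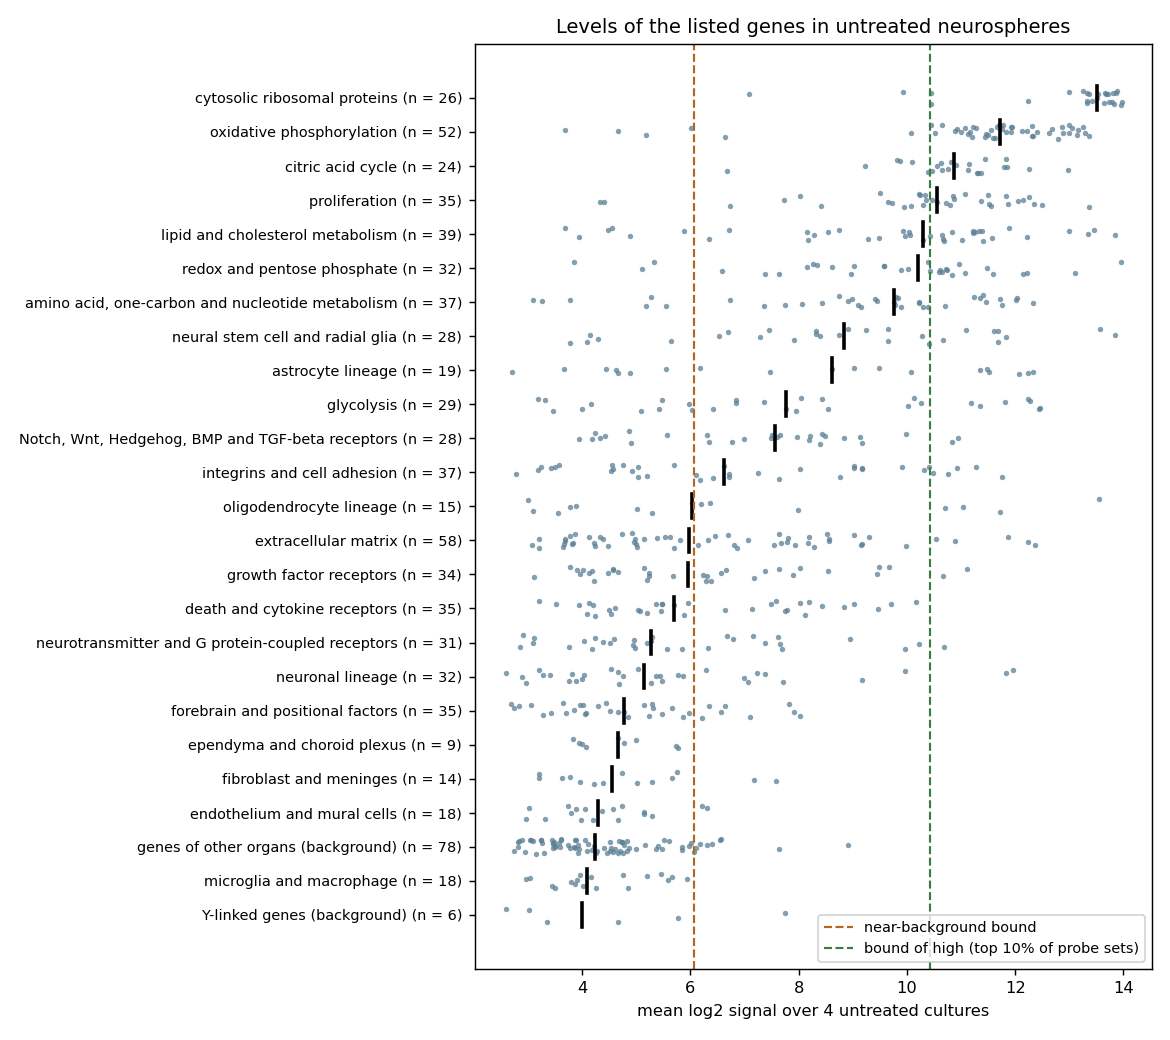
Mean log2 signal over the 4 untreated cultures (x axis) of each measured gene (points) in the 25 lists (rows, sorted by median, n measured genes), with the list median as a black bar. Dashed lines mark the near-background bound of 6.07 and the bound of high of 10.43, and the medians run from 4.01 for Y-linked genes to 13.52 for ribosomal proteins.

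Of 28 measured genes of neural stem cells and radial glia, 8 were high, 15 middle and 5 near background, with a median of 8.84. Fabp7 read 13.82, 13.84, 13.88 and 13.83. Vim, the filament protein vimentin of radial glia and other immature cells, read 13.57, 13.61, 13.58 and 13.53. Neither gene varied by more than 0.1 between cultures. The other high genes were the surface protein gene Cd24a (11.83 ± 0.04), the Polycomb gene Bmi1 of stem cell self-renewal (11.69 ± 0.04), the inhibitor of differentiation Id3 (11.61 ± 0.05) and the glutamate transporter Slc1a3 (10.66 ± 0.09), together with Sox2 and Nes. The 5 genes near background included Prom1, the surface protein CD133 (3.78 ± 0.18), Fut4, an enzyme that makes the LewisX epitope (4.14 ± 0.07), Tfap2c (4.10 ± 0.05) and Id4 (4.29 ± 0.07). Each of these 4 read below 4.5 in every culture. Within the Id family Id3 and Id4 thus stood at opposite ends of the list.

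The genes with the largest spread in the stem cell list were Nfia and Msi2. Nfia, a transcription factor that starts gliogenesis, read 8.06, 9.01, 8.98 and 8.97, so culture 1 lay below the other 3. Msi2, an RNA-binding protein of progenitors, read 7.45, 7.78, 7.71 and 6.87, with culture 4 lowest. The other probe set of Msi2 averaged 3.0 and those of Nfia averaged 5.62, so both classes rest on 1 bright probe set each.

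Genes of the cell cycle were the brightest of the lists of cell behaviour. Of 35 measured, 19 were high, 14 middle and 2 near background, with a median of 10.56. Pcna, the clamp of DNA polymerase, read 13.33, 13.39, 13.37 and 13.38. Topoisomerase Top2a, of replicating and dividing cells, averaged 12.49 ± 0.06, the replicative helicase subunits Mcm7 and Mcm6 averaged 12.25 ± 0.03 and 11.83 ± 0.04, and the ribonucleotide reductase subunit Rrm2 averaged 12.14 ± 0.05. Each of these replication genes kept an SD under 0.1.

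The D-type cyclins, which drive entry into the cycle, were high as well. Ccnd1 averaged 12.36 ± 0.06. Ccnd2 read 11.72, 12.20, 12.13 and 12.15, with culture 1 below the other 3. Most other probe sets of Ccnd2 were also lowest in culture 1, but a dimmer one was lowest in culture 3, with 8.46, 8.82, 8.16 and 8.33. Their partner kinase Cdk6 averaged 4.33 ± 0.15, near background, whereas Cdk4, which lies outside the rule for named genes and was picked after its value was seen, averaged 11.55. The inhibitor gene Cdkn2a, which encodes p16 and p19ARF, read 4.78, 4.63, 4.05 and 4.18 and was also near background. Cenpe, a kinetochore motor of mitosis, had the largest spread of the list, with 6.79, 8.52, 7.84 and 7.74, lowest in culture 1 and highest in culture 2. Tyms, which makes thymidylate, stood at 6.73 ± 0.12, the lowest of the cycle genes above background.

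**Figure D2:**
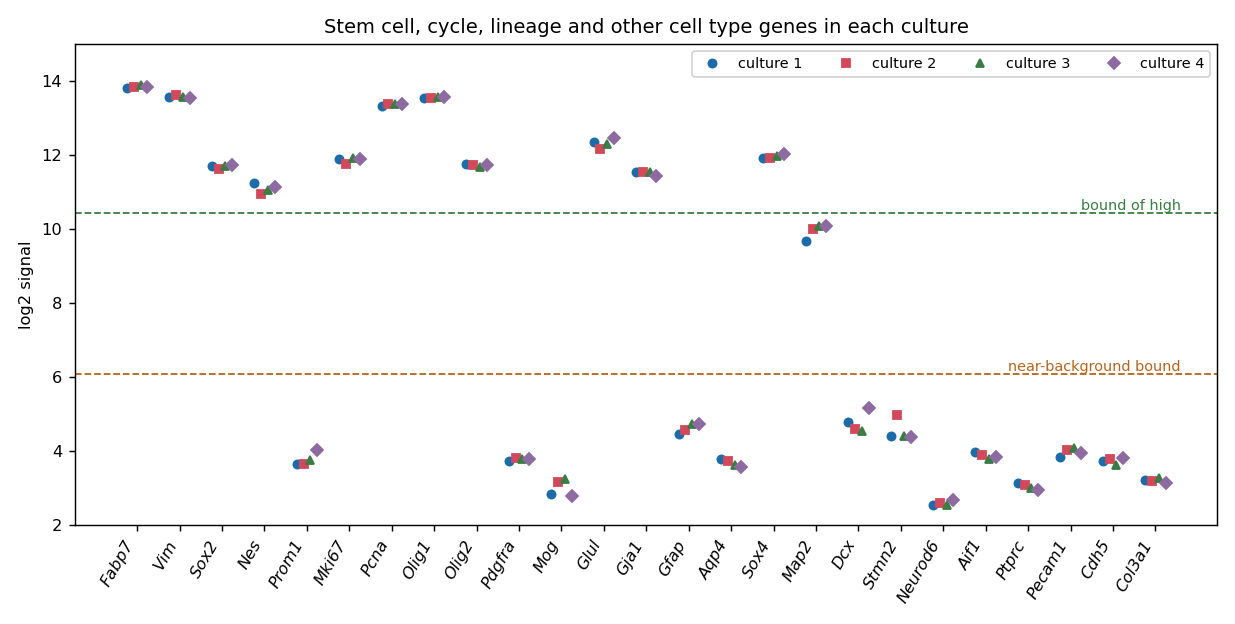
Log2 signal (y axis) of stem cell, cycle, lineage and other cell type genes (x axis) in each of the 4 untreated cultures (symbols). The points of Fabp7, Vim, Sox2, Nes, Mki67, Pcna, Olig1, Olig2, Glul, Gja1 and Sox4 lie above the bound of high, those of Map2 lie in the middle, and the other 13 genes lie below the near-background bound in every culture.

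Of the 19 measured genes of the astrocyte lineage, 6 were high, 6 middle and 7 near background. The high genes were Glul, the glutamine synthetase (12.32 ± 0.12), the secreted protein Sparcl1 (12.24 ± 0.04), the protease inhibitor Cst3 (12.07 ± 0.14), connexin 43, Gja1 (11.51 ± 0.06), metallothionein Mt1 (11.49 ± 0.04) and the brain aldolase Aldoc (11.36 ± 0.07). The other probe sets of Mt1 and Aldoc averaged 5.63 and 6.57, so the class of both rests on the brightest. Glul read 12.34, 12.17, 12.31 and 12.47, while its other probe set, at 9.38, was highest in culture 2, where the brighter was lowest. Cst3 read 12.12, 11.93, 11.98 and 12.25, lowest in culture 2 and highest in culture 4. The 5 dimmest genes of the list were Gjb6, Aqp4, Ndrg2 (4.44 ± 0.08), Gfap and Slc1a2. The water channel Aqp4 read 3.79, 3.72, 3.62 and 3.57, connexin 30, Gjb6, read 2.57, 2.72, 2.59 and 2.92, and the glutamate transporter Slc1a2 read 4.38, 4.43, 4.75 and 5.09. Apoe, a lipid carrier made by astrocytes, averaged 4.88 and was picked after its value was seen. Thus Slc1a3 (10.66) and Slc1a2 (4.66), the transporters also called GLAST and GLT-1, were high and near background.

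Neuronal genes were mostly near background, 22 of 32 measured, with 8 middle, 2 high and a median of 5.15. The high genes were Sox4, a transcription factor of committed progenitors (11.96 ± 0.05), and Cd24a, which the stem cell list holds too. The other probe sets of Sox4 averaged between 5.61 and 9.41, so its class rests on the brightest. Map2, a microtubule-binding protein of dendrites, read 9.68, 10.01, 10.09 and 10.08, with culture 1 lowest. The adhesion molecule Ncam1 averaged 9.18 ± 0.10, Sox11 7.71 ± 0.14, the growth cone protein Gap43 7.38 ± 0.06, the GABA-making enzyme Gad1 7.23 ± 0.20 and the calcium-binding Calb2 7.07 ± 0.08. The dimmest were genes of cortical neurons and neurofilaments. Neurod6 averaged 2.59 ± 0.07, Tbr1 2.97 ± 0.05, and the neurofilament genes Nefm and Nefl 2.89 ± 0.06 and 3.21 ± 0.25. The synaptic gene Snap25 (3.81 ± 0.34) and Stmn2, of growing axons (4.54 ± 0.28), had the largest SDs of the list, both at levels near background.

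Of 15 measured genes of the oligodendrocyte lineage 4 were high, 3 middle and 8 near background. Olig1 read 13.53, 13.55, 13.57 and 13.58 and ranked at the 99.5th percentile of probe sets. Olig2 (11.72), the receptor phosphatase Ptprz1 (11.04 ± 0.05) and Cnp, an enzyme of oligodendrocytes (10.71 ± 0.06), were the other high genes. The other probe sets of Cnp averaged 7.94 and 7.72, so its class rests on the brightest. Cspg4, the NG2 proteoglycan of progenitors, read 8.24, 7.98, 7.85 and 7.87, in the middle. Sox10 (6.37 ± 0.07) and Nkx2-2 (6.21 ± 0.20) lay just above the near-background bound, and Mbp, the myelin basic protein (6.02 ± 0.13), just below it. The growth factor receptor Pdgfra of oligodendrocyte progenitors read 3.73, 3.82, 3.78 and 3.78, and its other probe set averaged 3.76. The myelin genes Mog (3.01 ± 0.23), Mobp (3.56 ± 0.13) and Cldn11 (3.09 ± 0.04) were near background in all cultures.

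Markers of cells that a neurosphere culture could carry over from tissue were near background. This held for 9 of 9 measured genes of ependyma and choroid plexus, 18 of 18 of microglia and macrophages, 16 of 18 of endothelium and mural cells, and 12 of 14 of fibroblasts and meninges. Among defining markers, the leukocyte phosphatase Ptprc averaged 3.04 ± 0.08, the receptor Csf1r of microglia 5.47 ± 0.14, the endothelial cadherin Cdh5 3.74 ± 0.08, the pericyte receptor Pdgfrb 4.67 ± 0.07, the cilium factor Foxj1 5.74 ± 0.07 and the fibroblast collagen Col3a1 3.20 ± 0.05. Of the 4 exceptions, the receptor Flt1 (6.31 ± 0.08) and smooth muscle actin Acta2 (6.21 ± 0.11) lay just above the bound. Foxc1 (7.59 ± 0.07) and the matrix gene Fbln1 (7.18 ± 0.10) lay farther above it. All 4 rest on their brightest probe set, since the others lay below the bound. These averaged 6.05 for Foxc1, 5.07 for Fbln1, 3.75 for Acta2, and 4.91 and 4.42 for Flt1. The median of these lists lay between 4.09 and 4.67. It was 4.24 for the 78 genes of other organs, whose 90th percentile sets the bound. The 8 of these above it were led by the keratin Krt10 (8.92 ± 0.09) and loricrin, Lor (7.63 ± 0.06).

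Of 6 measured Y-linked genes, read as a background in cultures labelled as female, 5 were near background, with Eif2s3y at 2.59 ± 0.01 and Uty at 3.02 ± 0.07. Kdm5d stood at 7.74 ± 0.06, while its other probe sets averaged 5.56 and 3.57.

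Transcription factors of regional identity were dim. Of 35 measured genes of the forebrain and of the body axis, none was high, 8 were middle and 27 near background. Pax6, of the dorsal forebrain and eye, read 7.98, 8.0, 7.89 and 7.81, and Lhx2, a forebrain selector, read 7.91, 7.96, 7.61 and 7.78. The other probe sets of Pax6 averaged between 4.13 and 6.83. The Hox gene Hoxa5, of hindbrain and spinal cord, read 8.04, 8.05, 8.05 and 7.98. A further 4 Hox genes were middle, namely Hoxa3 (7.10 ± 0.13), Hoxa7 (6.63 ± 0.11), Hoxa9 (6.56 ± 0.11) and Hoxc9 (6.34 ± 0.07), as was the midbrain factor En2 (6.21 ± 0.16). The other probe set of Hoxa9 averaged 2.84. Among the 78 genes of other organs 8 were also middle, such as Prm1 (6.57), Apoa2 (6.54) and Cela3b (6.40). Hoxb5 (3.06 ± 0.07), Hoxc8 (2.84 ± 0.06), Hoxd10 (2.75 ± 0.16) and En1 (2.68 ± 0.09) were the dimmest, and Otx2, of the rostral brain, averaged 4.07 ± 0.22.

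Growth factor receptors ran from 3.12 to 11.11, with 2 of 34 measured genes high, 15 middle, 17 near background and a median of 5.97. The collagen receptor Ddr1 read 11.15, 11.16, 11.16 and 10.97 and the neurotrophin receptor Ntrk2 read 10.66, 10.68, 10.64 and 10.66. By these probe sets Ntrk2 had an SD of 0.02, and Ddr1 was lowest in culture 4. The other probe sets of Ddr1 averaged between 4.98 and 9.14. Those averaging 9.14 and 8.69 were also lowest in culture 4, whereas the one averaging 6.42 was highest there, with 6.33, 6.30, 6.51 and 6.53. The other probe set of Ntrk2 averaged 6.25 and read 5.64, 6.89, 6.18 and 6.30, so the small SD was not shared by its probe sets. The receptors of the mitogens usually given to neurospheres were middle, with Egfr at 9.40, 9.47, 9.42 and 9.51 and Fgfr1 at 9.97, 9.57, 9.58 and 9.56. Fgfr1 was highest in culture 1, and the other 3 cultures lay within 0.05 of one another. Fgfr3, an astroglial member of the family, averaged 9.49 ± 0.11. Igf1r and Igf2r, of the insulin-like growth factors, averaged 6.56 ± 0.26 and 8.03 ± 0.22. The culture order of Igf2r turned with the probe set, since the brighter read 7.80, 8.32, 8.02 and 7.96 and the other 7.87, 7.27, 7.34 and 7.56. Near background were Erbb4 (3.12 ± 0.06) and Erbb3 (3.97 ± 0.09), receptors of neuregulins, and Met (3.91 ± 0.06), the receptor of hepatocyte growth factor.

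Receptors of the developmental pathways were mostly middle, 18 of 28 measured, with 2 high, 8 near background and a median of 7.56. Ptch1, the Hedgehog receptor, read 10.93, 10.98, 10.88 and 11.01, and Notch1 read 10.84, 10.88, 10.79 and 10.84. Both were high in every culture by their brightest probe set, while the other probe sets averaged 6.50 and 8.48. Among receptors of bone morphogenetic proteins Bmpr1a averaged 9.98 ± 0.05, whereas Bmpr1b averaged 3.94 ± 0.17. The type 1 and type 2 receptors of TGF-beta, Tgfbr1 and Tgfbr2, averaged 9.14 ± 0.09 and 9.17 ± 0.11, and the co-receptor Tgfbr3 averaged 4.18 ± 0.04. The brightest Wnt receptor was Fzd2 (8.50 ± 0.06), and Fzd6 (4.42 ± 0.19) and the co-receptor Lrp5 (4.24 ± 0.12) were near background.

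Of 35 measured death and cytokine receptors none was high, 15 were middle and 20 near background. The death receptor Tnfrsf21, DR6 of developing neurons, was the brightest with 10.28, 10.09, 10 and 10.34. Lifr and Il6st, the receptor chains that share leukaemia inhibitory factor signals, averaged 9.71 ± 0.10 and 8.20 ± 0.06, while Cntfr, the ligand-binding chain for ciliary neurotrophic factor, averaged 5.36 ± 0.23. Tnfrsf1a, the main TNF receptor, read 9.48, 9.46, 9.46 and 9.44. Of the CD95 pathway, Fas read 4.62, 4.63, 4.39 and 4.47 and Fasl, its ligand, read 3.68, 3.48, 3.59 and 3.34. The adaptor Fadd read 8.18, 8.17, 8.17 and 8.12 and the initiator caspase Casp8 read 3.88, 3.72, 4.05 and 3.71. Fadd alone of these 4 was middle, and the other 3 lay below the near-background bound in every culture.

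Among neurotransmitter and G protein-coupled receptors 1 of 31 measured genes was high, 11 were middle and 19 near background. The thrombin receptor F2r averaged 10.69 ± 0.04 and the adhesion receptor Adgrg1, GPR56 of neural progenitors, averaged 10.22 ± 0.09. The glutamate receptor subunits differed widely, with Gria2 at 9.87, 9.85, 9.98 and 10.17 and Gria1 at 2.94, 3.03, 2.68 and 2.97. The subunit Gria4 (4.97 ± 0.32) and the kainate subunit Grik1 (2.86 ± 0.17) were also near background, while Grik5 averaged 7.67 ± 0.20. The GABA receptor subunit Gabra2 (8.95 ± 0.17) and Gabbr1 (7.69 ± 0.08) were middle, as was the endothelin receptor Ednrb (7.62 ± 0.14). The dimmest were Ackr3 (3.12 ± 0.11), an atypical chemokine receptor, and the serotonin receptor Htr2c (3.09 ± 0.16).

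Of 37 measured adhesion genes, 5 were high, 17 middle and 15 near background. The integrin chains Itgav, Itgb1 and Itga6 were high. Itgav, which pairs with several beta chains, read 11.76, 11.63, 11.79 and 11.87. Itgb1 read 11.17, 11.11, 11.43 and 11.43, and Itga6, its partner in a laminin receptor, read 10.80, 10.78, 10.73 and 10.72. Itgb1 was higher in cultures 3 and 4 than in 1 and 2, and Itga6 kept within 0.1. The laminin receptor dystroglycan, Dag1, averaged 10.93 ± 0.10, and the cadherins Cdh4 and Cdh2 averaged 10.49 ± 0.07 and 10.41 ± 0.13. The other probe sets of Itgav averaged 9.1 and 6.2, that of Itga6 9.66, those of Dag1 between 8.98 and 9.4, and that of Cdh4 4.87. All of these lay below the bound of high, so the classes of Itgav, Itga6, Dag1 and Cdh4 rest on the brightest probe set. The hyaluronan receptor Cd44 averaged 10.32 ± 0.05, just under the bound of high. The epithelial cadherin Cdh1 (2.79 ± 0.11), Cdh11 (3.18 ± 0.11), Icam1 (3.25 ± 0.08) and the leukocyte integrin chain Itgb2 (3.42 ± 0.09) were near background. Alcam, an adhesion molecule of growing axons, read 5.61, 4.87, 4.93 and 5.36 and had the largest SD of the list, while its other probe set read 4.82, 5.25, 4.95 and 4.96.

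**Figure D3:**
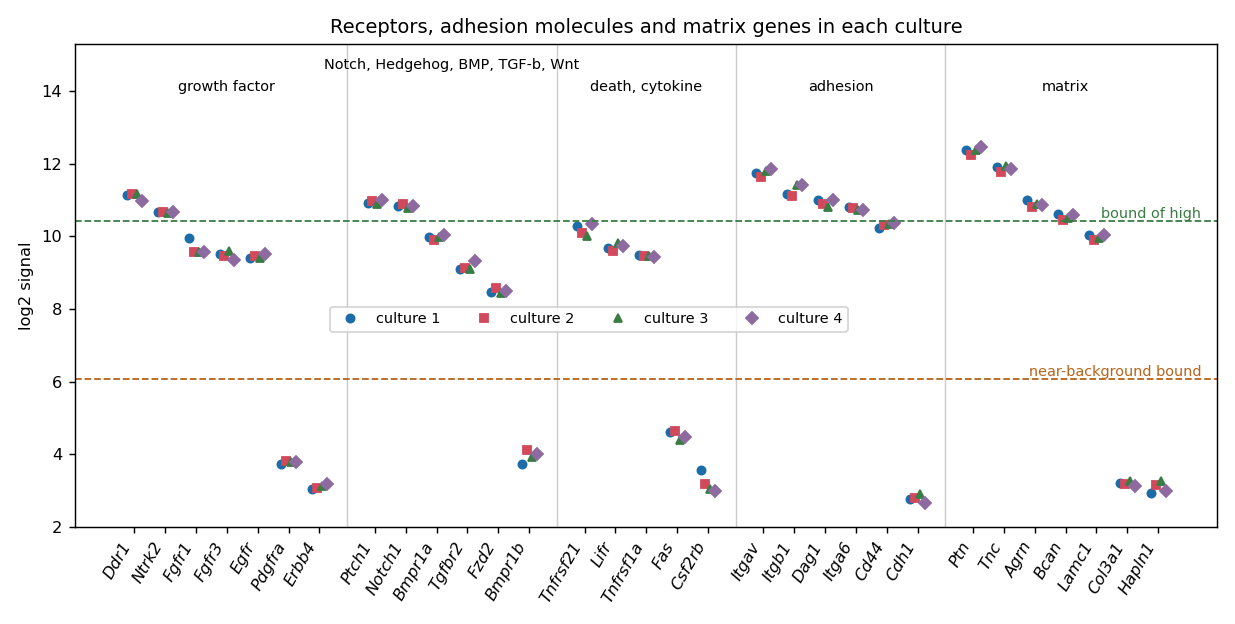
Log2 signal (y axis) of growth factor, developmental, death and cytokine receptors, adhesion molecules and matrix genes (x axis) in each of the 4 untreated cultures (symbols). Itgav, Ptn and Tnc lie between 11.6 and 12.5, Egfr and Fgfr1 lie between 9.40 and 9.97, and Pdgfra, Erbb4, Bmpr1b, Fas, Csf2rb, Cdh1, Col3a1 and Hapln1 lie below the near-background bound.

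Of 58 measured genes of the extracellular matrix 5 were high, 24 middle and 29 near background, with a median of 5.98. Ptn, the growth factor pleiotrophin held in the matrix, read 12.37, 12.25, 12.38 and 12.47. Tnc, tenascin C of the stem cell niche, read 11.92, 11.77, 11.93 and 11.85. Sparcl1 (12.24), the heparan sulphate proteoglycan Agrn (10.89 ± 0.07) and the brain proteoglycan Bcan (10.54 ± 0.07) completed the high genes. The 4 lectican proteoglycans were spread over the scale. Besides Bcan, Ncan read 9.49, 9.21, 9.06 and 8.93, highest in culture 1, and Vcan read 5.81, 5.16, 5.61 and 5.54, lowest in culture 2. The other probe set of Ncan stayed between 5.25 and 5.33, and the next of Vcan read 4.76, 4.76, 4.59 and 4.66, so neither order was shared. Acan, picked after its value was seen, averaged 4.24, and Hapln1, which links lecticans to hyaluronan, averaged 3.08 ± 0.15. The laminin chain Lamc1 (9.99 ± 0.07) and Sparc (9.31 ± 0.08) were middle, whereas Lama3 (3.65 ± 0.09), the fibrillar collagen Col3a1, given above, and lumican, Lum (3.21 ± 0.05), were near background.

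Of 52 measured genes of oxidative phosphorylation 46 were high, 2 middle and 4 near background, with a median of 11.71. The ATP synthase subunits Atp5b and Atp5g3 averaged 13.36 ± 0.01 and 13.26 ± 0.02, Uqcrb of complex III 13.30 ± 0.03, and Cox5b and Cox6a1 of complex IV 13.17 ± 0.03 and 13.15 ± 0.03. The 4 genes near background were all complex IV subunits that other tissues use in place of the general form. Cox6a2 (6.02 ± 0.13), Cox8b (5.18 ± 0.17) and Cox7a1 (3.69 ± 0.06) are forms of heart and muscle, and Cox4i2 (4.66 ± 0.11) is a form of the lung. Their general counterparts were Cox6a1 (13.15) and Cox7a2 (12.99 ± 0.05), and, picked after their values were seen, Cox8a (11.78) and Cox4i1 (12.86).

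The citric acid cycle had 18 of 24 measured genes high, 6 middle and none near background. Malate dehydrogenases Mdh2 and Mdh1 averaged 12.98 ± 0.02 and 12.26 ± 0.01, the isocitrate dehydrogenase subunit Idh3a 11.86 ± 0.04, citrate synthase Cs 11.84 ± 0.06 and fumarase Fh1 11.80 ± 0.05. Pyruvate carboxylase Pcx, which refills the cycle, was the dimmest of the list with 6.72, 6.76, 6.72 and 6.52.

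Glycolysis was more uneven, with 7 of 29 measured genes high, 12 middle and 10 near background. Pgk1 (12.46 ± 0.03), the pyruvate kinase Pkm (12.45 ± 0.08), the aldolase Aldoa (12.28 ± 0.10), Ldha (12.24 ± 0.04), Tpi1 (11.81 ± 0.08), Aldoc (11.36) and Pgam1 (11.19 ± 0.05) were high. The genes near background included forms of other tissues, such as Ldhc of testis (4.01 ± 0.14) and the glucose transporter Slc2a2 of liver (3.32 ± 0.24). They also included Eno2, the enolase of neurons (3.20 ± 0.08), the kinase Pdk4 (3.46 ± 0.18) and the neuronal glucose transporter Slc2a3, which read 6.28, 5.92, 5.89 and 5.78, highest in culture 1, where the next probe set was lowest at 5.12. The lactate transporter Slc16a1 averaged 10.26 ± 0.01, with the smallest SD of the named glycolysis genes.

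Lipid and cholesterol genes had 18 of 39 measured members high, 15 middle and 6 near background. Scd2, the stearoyl-CoA desaturase of brain, read 13.47, 13.44, 13.47 and 13.48, and the fatty acid carrier Fabp5 averaged 13.34 ± 0.03. In cholesterol synthesis Hmgcs1, Fdps, Sqle and Idi1 averaged 13.0 ± 0.03, 12.21 ± 0.12, 11.88 ± 0.10 and 11.57 ± 0.03. Fatty acid synthase Fasn averaged 11.41 ± 0.05, while the carboxylase Acaca, which makes its substrate, read 6.28, 6.56, 7.0 and 7.05, lower in cultures 1 and 2 than in 3 and 4. The cholesterol exporter Abca1 read 5.91, 5.40, 6.0 and 6.20, lowest in culture 2. Members of the fatty acid binding family stood far apart in signal, with Fabp7 (13.84) and Fabp5 (13.34) against Fabp3 (4.48 ± 0.10), Fabp4 (3.95 ± 0.04) and Fabp1 (3.69 ± 0.12), forms of heart, fat and liver.

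Among 37 measured genes of amino acid, one-carbon and nucleotide metabolism 10 were high, 21 middle and 6 near background. The serine synthesis enzymes Phgdh and Psat1 averaged 12.04 ± 0.08 and 11.72 ± 0.03, the purine enzyme Paics 12.02 ± 0.03 and the polyamine enzyme Odc1 11.76 ± 0.07. Mthfd2, a mitochondrial folate enzyme, read 10.11, 9.82, 9.62 and 9.67, highest in culture 1, while its other probe set stayed between 9.58 and 9.70. The purine enzyme Gart read 9.67, 9.69, 10.08 and 10.09, higher in cultures 3 and 4, but its other probe sets read 9.70, 9.62, 9.79 and 9.73 and 8.71, 8.71, 8.66 and 8.55. The urea cycle genes Cps1 (3.77 ± 0.05), Otc (3.26 ± 0.16) and Arg1 (3.09 ± 0.15) were near background. Of 32 measured redox and pentose phosphate genes 14 were high, 15 middle and 3 near background, led by Txn1 (13.95), transketolase Tkt (13.10 ± 0.11), glutathione transferase Gstp1 (12.23 ± 0.08) and the peroxiredoxin Prdx2 (12.14 ± 0.11). Nqo1, a quinone reductase of the oxidative stress response, read 6.84, 6.55, 6.62 and 6.34, highest in culture 1 and lowest in culture 4. Gpx2 (5.11 ± 0.11), Gpx3 (5.33 ± 0.02) and Gpx7 (3.85 ± 0.06) were the genes near background.

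Cytosolic ribosomal proteins were the brightest list, with 24 of 26 measured genes high and a median at the 99.5th percentile of probe sets. Rps2, Rps29 and Rplp2 averaged 13.97 ± 0.01, 13.95 ± 0.04 and 13.87 ± 0.04. The middle genes were Rps6 (9.92 ± 0.09) and Rps27 (7.09 ± 0.17), although all 26 proteins are part of the same particle. Genes of this family have many near-identical pseudogenes that could share probes.

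The spread between cultures was small for most genes. The median SD was 0.05 for high genes, 0.08 for middle genes and 0.12 for genes near background. The 4 cultures differed by more than 1 in log2, from the lowest to the highest, in 30 of 12393 genes, of which 3 were high, 23 middle and 4 near background. Array medians lay between 6.93 and 6.95, and each pair of arrays had a Pearson correlation across probe sets of 0.997 or 0.998, where probe sets are not independent replicates. Because array quantiles were nearly equal in the deposited values, the medians say nothing of the spread between cultures.

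**Figure D4:**
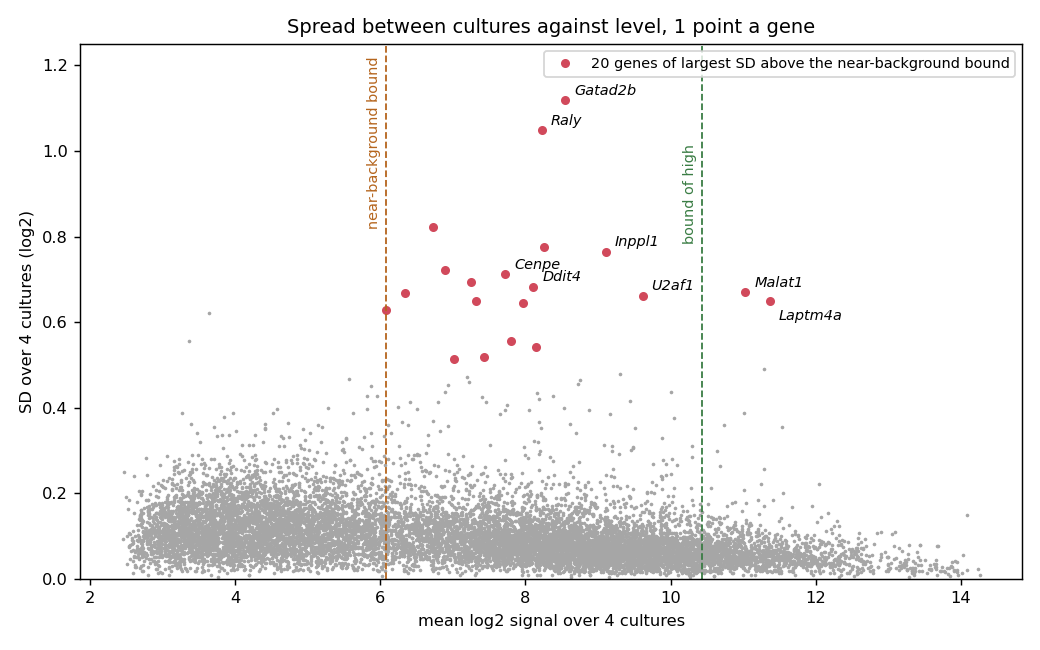
SD over the 4 untreated cultures (y axis) against mean log2 signal (x axis), 1 point a gene, with the 20 genes of largest SD above the near-background bound in red. Most points lie below 0.2, and Gatad2b (1.12) and Raly (1.05) stand highest.

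Culture 1 was lowest in 10 of the 20 genes above background with the largest SD. Gatad2b, a subunit of the NuRD chromatin complex, read 6.88, 9.29, 9.05 and 8.96. Inppl1, a lipid phosphatase of insulin signalling, read 8.0, 9.74, 9.41 and 9.29, and Laptm4a, a lysosomal membrane protein, read 10.43, 11.92, 11.61 and 11.50. In each of these 3 genes culture 1 was the lowest and culture 2 the highest. The same order of extremes held for Cenpe, the stress gene Ddit4 (7.17, 8.78, 8.37 and 8.11), Mapk8ip1, Rnf25, Ccdc71 and Tmem121, and for the brightest probe set of Lpgat1, whereas the next one read 8.13, 7.94, 8.05 and 7.99. Culture 2 alone stood above the others in Malat1, a nuclear long noncoding RNA, with 10.76, 12.03, 10.75 and 10.59, and in the splicing factor gene U2af1, with 9.45, 10.58, 9.35 and 9.08. Malat1 was highest in culture 2 by each of its 5 probe sets, and culture 1 alone stood above the others in Vat1 (7.33, 6.04, 6.14 and 5.86).

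Other variable genes parted cultures 1 and 2 from cultures 3 and 4. Raly, an RNA-binding protein, read 9.45, 8.74, 7.23 and 7.49, and the endosome gene Rab5c read 7.68, 8.0, 6.74 and 6.59. Max, the partner of Myc, read 6.46, 6.76, 5.52 and 5.57, and the coat protein gene Copg2 and Retreg3 had the same order. The reverse order held for Mtm1, a myotubularin phosphatase, with 7.88, 7.35, 8.97 and 8.83, and for Psg28, with 6.39, 5.73, 7.38 and 7.43. By the median of the other 3 cultures, 10 genes above background were off by more than 1 in culture 1, 8 in culture 2, 2 in culture 3 and 3 in culture 4.

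Some control values of culture 1 differed from those of the others. The poly-A control transcripts, added to the RNA before labelling, averaged 7.46 in culture 1 against 8.09, 7.96 and 7.98 in cultures 2 to 4. The signal of the 3′ beta-actin probe set above the 5′ one, which grows as RNA is shortened, was 0.57 in culture 1 against 0.28, 0.40 and 0.37. The same difference was 1.63 against 1.33, 1.12 and 1.33 for the transferrin receptor, and -0.27 against -0.28, -0.25 and -0.31 for Gapdh, where culture 1 lay among the others. Their part in the genes that were lowest or highest in culture 1 was not tested.

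Level and upstream sequence went together across genes. Of the 12393 genes, 9887 had an upstream stretch in the RefSeq table. High genes held a median of 18 CG dinucleotides in 250 bases, middle genes 17 and genes near background 6, against 14 for all genes ranked. With genes sorted by level into 10 equal groups, the median was 3 in the dimmest group, 16 in the fifth and 18 in the brightest, so it changed over the lower part of the scale and little above it. At least 15 CG dinucleotides were found in 67.5% of high genes, 60% of middle genes and 22.1% of genes near background.

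**Figure D5:**
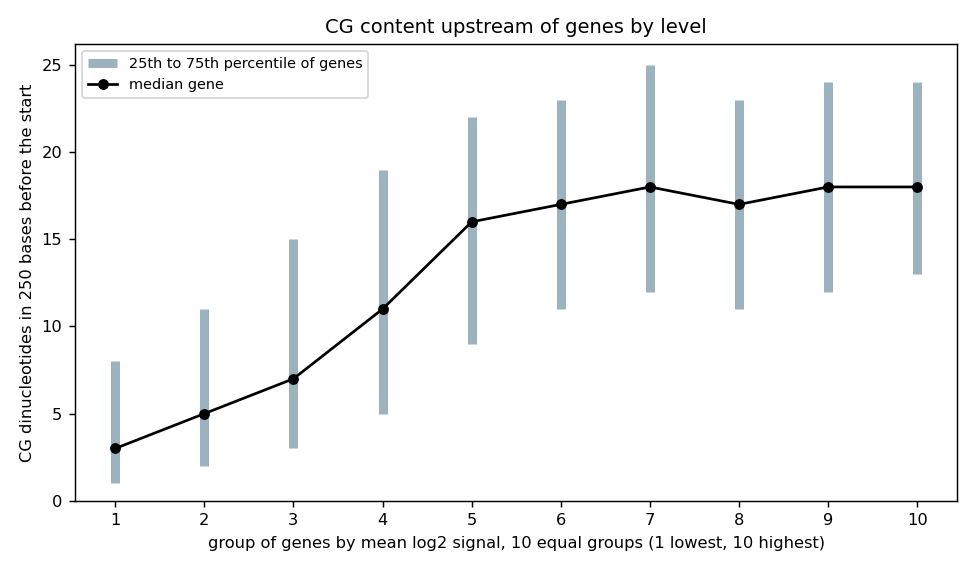
Number of CG dinucleotides in the 250 bases before the annotated start (y axis) in 10 equal groups of genes sorted by mean log2 signal (x axis), with the median gene as points and the 25th to 75th percentile of genes as bars. The median is 3 in the dimmest group and 18 in the brightest.

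Short motifs were counted on both strands of the same stretches. TATAAA, the core of the TATA box, occurred in 7.18% of high, 5.35% of middle and 14.9% of genes near background, and in 9.14% of all genes ranked. GGGCGG, the core of the GC box, occurred in 63.7%, 63.1% and 36.6%, and in 53.2% of all. CCGGAA, a core of ETS factor sites, occurred in 30.2%, 24.3% and 8.65%, and in 19.0% of all. CCAAT, of the CCAAT box, occurred in 40.5%, 36.4% and 33.6% (35.8% of all), CACGTG, of the E box, in 10.5%, 8.47% and 5.92% (7.74% of all), and TGACGTCA, of cAMP response elements, in 3.27%, 2.81% and 1.37% (2.32% of all). Apart from the TATA and CCAAT boxes, each of these motifs contains a CG dinucleotide, so their counts are not separate from the CG count. A match is only a run of letters, and no match says nothing of the factor. Between lists the median CG count was 24.5 for receptors of the Notch, Wnt, Hedgehog, BMP and TGF-beta pathways, 18 for ribosomal proteins and 16 for the stem cell list, against 4 for microglia and macrophages and 3 for genes of other organs. Exceptions occurred within several lists. In the stem cell list the 16 genes above background with a stretch had a median of 15.5, and the 4 near background, Id4 among them, had 22.5. The medians above and near background were 15 and 16 for growth factor receptors, and also 15 and 16 for death and cytokine receptors. They were 13 and 15 for neurotransmitter and G protein-coupled receptors and 2 and 3 for genes of other organs. For proliferation they were 15.5 and 31, with 2 genes near background. In the remaining lists with genes in both parts the median was higher above background. Among single genes, Vim, at 13.57, held 8 and the letters TATAAA.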

How the data were processed

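Log2 signals of 22690 probe sets were read from the table deposited by the authors, rounded to 2 decimals. Array quantiles were nearly equal, and the normalisation method, scanner settings and software were not given in the sources used here. Probe sets were named through the platform's annotation, updated to GRCm38.p6 gene names: 20380 had 1 gene, 691 several and 1555 none, and 12369 of 12393 genes were found in the reference. Only the 4 untreated total RNA arrays were used. A gene's level is the mean of its brightest probe set. High is above the 90th percentile of probe sets, and near background is at or below the 90th percentile of genes of other organs. No groups were compared, so there is no test.

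Members and lists were chosen with earlier results of these data known. Genes named are the 6 markers, per list the 8 highest, 4 lowest and 2 of largest SD, the 30 brightest genes, the 20 of largest SD above background, and Fas, Fasl, Fadd and Casp8. Alternatives were other scalings, summaries, probe set rules, bounds, a filter on dim probe sets, and leaving out each array. Steps were tested on simulated data. Python 3.11.15, numpy 2.4.6, pandas 2.3.3 and matplotlib 3.10.9 were used. Promoter stretches are RefSeq's, and motifs were matched on both strands.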

Additional observations from a re-analysis of the deposited data

Results flagged for a closer look

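In 27 of the 349 named genes (7.74%) 1 culture stood apart, its gap to the nearest other culture divided by the range of the 4 exceeding Dixon's 95% critical value, which chance passes in about 1 of 20 groups. Over all genes above background 440 of 7466 (5.89%) did so. The named genes include genes near background and genes chosen for a large SD. Their share therefore cannot be set against either of the other rates. The critical value served only as a flag, and no test was drawn from it. Each gene was read by its brightest probe set, and other probe sets did not always single out the same culture. Those of Nfia, Actb and Malat1 kept the extreme culture, whereas those of Ncam1 did not put culture 1 highest throughout. Most other probe sets of Ccnd2 kept culture 1 lowest, but a dimmer one was lowest in culture 3 (8.46, 8.82, 8.16 and 8.33). Most other probe sets of Gja1 kept culture 4 lowest, but a dimmer one was highest there (8.21, 8.53, 8.53 and 8.62). In the next 2 paragraphs, values in parentheses are the gap of the culture that stood apart, as a share of the range.

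Culture 1 stood apart in 14 genes. It was lowest for the cyclin Ccnd2 (0.854), the gliogenic factor Nfia (0.958), Gatad2b (0.863), Mapk8ip1 (0.871) and Actb (0.844), and, near background, for Abcc9 (0.909), Acacb (0.833) and Folr1 (0.931). It was highest for the receptor Fgfr1 (0.951), the adhesion molecule Ncam1 (0.952), the ribosomal protein genes Rps24 (0.833) and Rps4x (1), and, near background, for Slc2a2 (0.878) and Twist1 (0.919).

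Culture 2 stood apart in 4 genes, highest for Malat1 (0.882) and for Stmn2 (0.965) near background, and lowest for Sox2 (0.889) and Il6st (0.846). Sox2 read 11.63 there against 11.71 to 11.72, a gap of less than 0.1 in log2. Culture 3 was lowest in 2 genes, Uqcrb (1) and, near background, Itgb2 (0.889). Culture 4 stood apart in 7 genes. It was lowest for the collagen receptor Ddr1 (0.947), connexin Gja1 (0.923), Hoxa5 (0.857), Fadd (0.833) and Pcx (0.833), and highest for Tgfbr2 (0.864) and Atp5g3 (1). For Rps4x, Uqcrb and Atp5g3 the whole range was 0.05 or less, where values rounded to 2 decimals leave few steps.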

How the results depend on the processing

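No paired analysis was possible because the result comes from no test. Without 1 culture at a time the number of high genes was 1329 to 1340 and of genes near background 4884 to 4969. Counts also moved by less than 1.5 times under quantile normalisation, equal array medians or the median of the arrays. Quantile normalisation and equal array medians could change little, because array quantiles were already nearly equal. High genes numbered 794 when all probe sets of a gene were averaged, where Nes became middle. They numbered 610 (listed genes 120) with the top 5% of probe sets, where Nes also became middle, and 2823 with the top 20%. Near background were 3537 genes with the bound at 4.96, the 75th percentile of genes of other organs. Of the defining markers of other cell types, Foxj1 (5.74) and Csf1r (5.47) lay above that bound, and Ptprc, Cdh5, Pdgfrb and Col3a1 below it. The counts for other cell types thus depend on the bound. With it at 7.74, the highest Y-linked gene, 6820 genes were near background. Named genes called high numbered 71 with only probe sets ending in _at, against 117 in the main setting. That rule measured 276 of the 349 named genes and set the bound of high at 9.90, and 30 of them changed class. The lower count thus mixes genes no longer measured with changes of class. Without the dimmest 25% of probe sets 2047 genes, and 111 listed genes, were near background. The near-background bound stayed at 6.07 there, so dropping dim genes could only lower these counts. The bound of high rose to 10.81 under this filter, and 957 genes were high. With the bound at the tryptophan control, a bacterial sequence, chosen after seeing the data, 274 genes and 9 listed genes were near background and 10788 were middle. Gfap and Dcx lay above that bound, and otherwise the 5 markers apart from Nes kept their class under every scaling, probe set rule and bound that measured them. The signal over background therefore limits what near background can say.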

Other observations

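Further gene families, picked by symbol after the data had been seen, filled in the picture of the cultures. Subunits of protein machines were bright, where 10.7% of all genes were high. Of 38 measured proteasome subunits 28 were high, with Psmb7 highest at 12.57 and Psma8 lowest at 3.26. All 8 measured subunits of the chaperonin CCT, which folds actin and tubulin, were high, from Cct8 at 12.13 to Cct2 at 12.90. Of 18 measured hnRNP genes, which bind nascent RNA, 14 were high and none near background. Of 42 translation initiation factors 24 were high. Families of differentiated tissues were dim, where 39.8% of all genes were near background. Near background were 53 of 61 cytochromes P450, 51 of 62 potassium channels, 33 of 36 keratins, 26 of 29 chemokine ligands, 24 of 26 interleukins, 17 of 18 claudins, 8 of 8 aquaporins and 8 of 8 interferon genes.

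Some families held members at both ends, as did all genes, of which 10.7% were high, 49.5% middle and 39.8% near background. Of 17 measured Sox factors 2 were high, 10 middle and 5 near background, from Sox4 at 11.96 to Sox7 at 2.97. The Notch targets of the Hes and Hey family ran from Hes1 at 9.65 to Hey2 at 3.12. The 4 nuclear factor I genes were all middle, between Nfia at 8.76 and Nfix at 10.29. Of 14 tubulins 7 were high, led by Tuba1a at 13.36. Of 245 solute carriers 10 were high, led by the ADP/ATP carrier Slc25a5 at 13.33, and 126 were near background.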
